A study of Mus musculus with 8 samples.

Results

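The genes described here encode the proteins of the mitochondrial ribosome. They are the rows of the normalized expression table whose symbol begins with Mrpl (large subunit) or Mrps (small subunit) followed by a number and at most 1 letter, and whose mean over all 8 libraries is at least 10 normalized counts. In all, 77 symbols matched and all 77 reached that mean, 48 of the large and 29 of the small subunit, of 11233 genes in the table and 11032 with such a mean. They were chosen by symbol and mean and not by a value of the comparison below, although earlier results of these data were known.

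The mitochondrial ribosome translates the few proteins encoded in mitochondrial DNA, which are membrane subunits of the respiratory chain and of ATP synthase. Its RNAs come from the mitochondrial genome, whereas all of its proteins are encoded in the nucleus, made by cytosolic ribosomes and imported. Activated T cells enlarge their mitochondrial mass and protein synthesis, and the mitochondrial ribosome is needed for that synthesis.

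The 8 bulk RNA-Seq libraries came from CD4+ conventional T (Tconv) cells of B16-F10 melanomas, a transplantable mouse tumor line grown under the skin, and 4 libraries were of CCR8+ and 4 of CCR8- cells. All mice were Foxp3 EGFP-DTR, a genotype in which EGFP and the human diphtheria toxin receptor are driven by the endogenous Foxp3 gene, and all received diphtheria toxin (DTx), which removes regulatory T cells, in 4 injections of 1 µg, so that both populations are from treated animals and no untreated library enters. The mice were 8 to 14 weeks old and the EGFP-negative cells were sorted on day 16 after implantation. CCR8 is a chemokine receptor found on a part of tumor Tconv cells, and the comparison asks how the transcripts of CCR8+ cells differ from those of CCR8- cells. Both populations carry the replicate numbers 1 to 4, and the sources do not say that a number stands for a mouse.

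Between 12067780 and 17802628 reads per library were recovered from the table, and 3 reads were worth between 2.21 and 3.42 normalized counts. CCR8- replicate 1 stood apart from the other 7 libraries in its gaps, with 22.5% of tested genes at 0 against 2.37% to 13.6%. The sorted receptor separated the groups, since Ccr8 had 2039, 1293, 6214 and 4637 normalized counts in CCR8- replicates 1 to 4 and 7975, 6970.2, 42508 and 22965 in CCR8+ replicates 1 to 4. The 7 T cell markers summed to between 79902 and 119948 normalized counts in every library. The 9 macrophage markers summed to between 28.6 and 60101 in CCR8- and between 3008 and 27376 in CCR8+ libraries, and the 6 melanoma markers to between 105.4 and 17324 and between 232 and 21762. The 2 CD8 T cell markers summed to between 980.1 and 3805 in CCR8- and between 478 and 1227 in CCR8+ libraries, the 3 dendritic cell markers to between 149 and 426 and between 201.1 and 487, the 2 fibroblast markers to between 0 and 619 and between 13.7 and 228, and the 2 NK cell markers to between 0 and 256 in CCR8- libraries and 0 in all CCR8+ libraries. The part of such RNA in the values below was not tested.

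The promoters of the most highly read members are shown first, because the members were chosen by symbol alone and a promoter is a sequence in which they can be compared with other genes. RefSeq promoters on GRCm38.p6, which run from 250 bases before to 50 bases after a gene's start, were found for 68 of the 77 members. The promoters of the 2 members of each subunit with the highest mean are printed 5′ to 3′ on the strand of the gene, and capitals mark a match on either strand to CCGGAAG (a motif of ETS factors such as GABP), AAGATGGC (a motif of YY1) or the motif of nuclear respiratory factor NRF1, these being factors known to act at nuclear genes for mitochondrial proteins. Mrpl33 lies on the plus strand (chr5:31613701-31614000), Mrpl42 on the minus strand (chr10:95501900-95502199), Mrps14 on the plus strand (chr1:160194965-160195264) and Mrps24 on the minus strand (chr11:5707652-5707951).
Mrpl33: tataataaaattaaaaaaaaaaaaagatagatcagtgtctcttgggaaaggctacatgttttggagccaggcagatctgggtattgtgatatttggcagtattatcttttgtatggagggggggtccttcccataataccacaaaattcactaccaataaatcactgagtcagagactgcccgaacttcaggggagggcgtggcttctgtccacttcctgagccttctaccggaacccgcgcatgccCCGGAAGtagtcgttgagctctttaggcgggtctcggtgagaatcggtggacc
Mrpl42: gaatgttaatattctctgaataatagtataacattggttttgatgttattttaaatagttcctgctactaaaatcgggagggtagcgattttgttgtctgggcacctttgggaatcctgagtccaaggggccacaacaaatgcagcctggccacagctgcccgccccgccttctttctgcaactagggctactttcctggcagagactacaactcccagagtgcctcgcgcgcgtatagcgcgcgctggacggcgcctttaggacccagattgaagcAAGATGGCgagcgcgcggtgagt
Mrps14: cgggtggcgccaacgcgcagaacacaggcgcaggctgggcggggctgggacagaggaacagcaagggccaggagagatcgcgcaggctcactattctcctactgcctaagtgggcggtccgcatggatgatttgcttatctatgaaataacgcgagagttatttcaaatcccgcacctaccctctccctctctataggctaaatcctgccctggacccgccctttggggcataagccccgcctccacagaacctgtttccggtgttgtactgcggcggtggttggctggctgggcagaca
Mrps24: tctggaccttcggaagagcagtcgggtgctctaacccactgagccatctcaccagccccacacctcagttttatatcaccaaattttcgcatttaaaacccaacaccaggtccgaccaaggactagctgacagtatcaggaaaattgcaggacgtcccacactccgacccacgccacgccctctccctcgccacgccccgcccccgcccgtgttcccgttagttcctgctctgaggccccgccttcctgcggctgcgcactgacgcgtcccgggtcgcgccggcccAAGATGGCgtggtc

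The Mrpl33 promoter held the ETS letters, those of Mrpl42 and Mrps24 the YY1 letters near the start, and that of Mrps14 none of the motifs. Among the 68 members with a promoter, 24 (35.3%) held the ETS letters, compared with 19.9% of the 8884 tested genes with a promoter and 9.12% of all 27025 promoters. The YY1 letters were in 12 (17.6%) against 5.09% of tested genes and 2.88% of all promoters. The NRF1 motif was in 13 (19.1%) against 11.2% and 4.78%, with 10 of 42 large subunit and 3 of 26 small subunit promoters. At least 1 of these 3 motifs was in 41 members (60.3%), against 32.1% of tested genes and 15.2% of all promoters. The letters CACGTG, the E-box to which MYC binds, were in 5 members (7.35%) against 10.4% and 7.24%, and TATAAA, the TATA box, in 4 (5.88%) against 7.13% and 14.2%. A match describes the letters of the window and not a bound site.

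All members were read in nearly every library, at moderate levels. Mean normalized counts over the 8 libraries ranged from 205 to 4461, and transcripts were short, with a median of 1288 bases (418 to 7300) against 2875 bases for all genes with a length. Per kilobase of transcript, the median large subunit gene had 708 normalized counts in CCR8- and 688 in CCR8+ cells, and the median small subunit gene 619 and 569. Within each population the levels per kilobase spanned more than 30-fold in either subunit, although most of the proteins enter the ribosome in single copies.

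Mrpl33, a small protein of the large subunit, had the highest level of all members, with 9284, 3882, 1882 and 3759 normalized counts in CCR8- replicates 1 to 4 and 2827, 3980.1, 6252 and 3819.7 in CCR8+ replicates 1 to 4. The highest value and the lowest were both in CCR8- libraries, replicates 1 and 3, and the groups overlapped. Mrpl42, a large subunit protein specific to mitochondria, had 8127, 2219.7, 1349 and 2588 in CCR8- and 2566, 2296, 2062 and 3021 in CCR8+ libraries. Mrpl4, a conserved protein near the exit tunnel, had 1965, 2217, 1938 and 2525 in CCR8- and 1410.4, 2479, 2747 and 2694 in CCR8+ libraries, with CCR8+ replicate 1 the lowest. Among small subunit genes Mrps14 came first, at 4018, 1734, 1021 and 2165 normalized counts in CCR8- and 1609, 1976, 1568 and 1677 in CCR8+ libraries. Mrps24 had 3499.8, 1752, 1043 and 1871 in CCR8- and 1165, 1725, 1789 and 1672 in CCR8+ libraries, and Mrps18c 4086, 1351, 806 and 1941 in CCR8- and 1732, 1404, 1218 and 1941 in CCR8+ libraries. In 5 of these 6 genes, all but Mrpl4, CCR8- replicate 1 was the highest library and CCR8- replicate 3 the lowest, with the CCR8+ libraries between them. The log2 fold changes (CCR8+ over CCR8-, on log2 of the normalized count + 1) of Mrpl33, Mrpl42, Mrpl4, Mrps14, Mrps24 and Mrps18c were 0.02, −0.20, 0.07, −0.22, −0.25 and −0.15, with standard errors of 0.25 to 0.44 and limma adjusted p of 0.887 to 0.995. The direction for Mrpl33 turned to −0.05 with each library scaled to the same total and to −0.06 after quantile normalization.

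**Figure D1:**
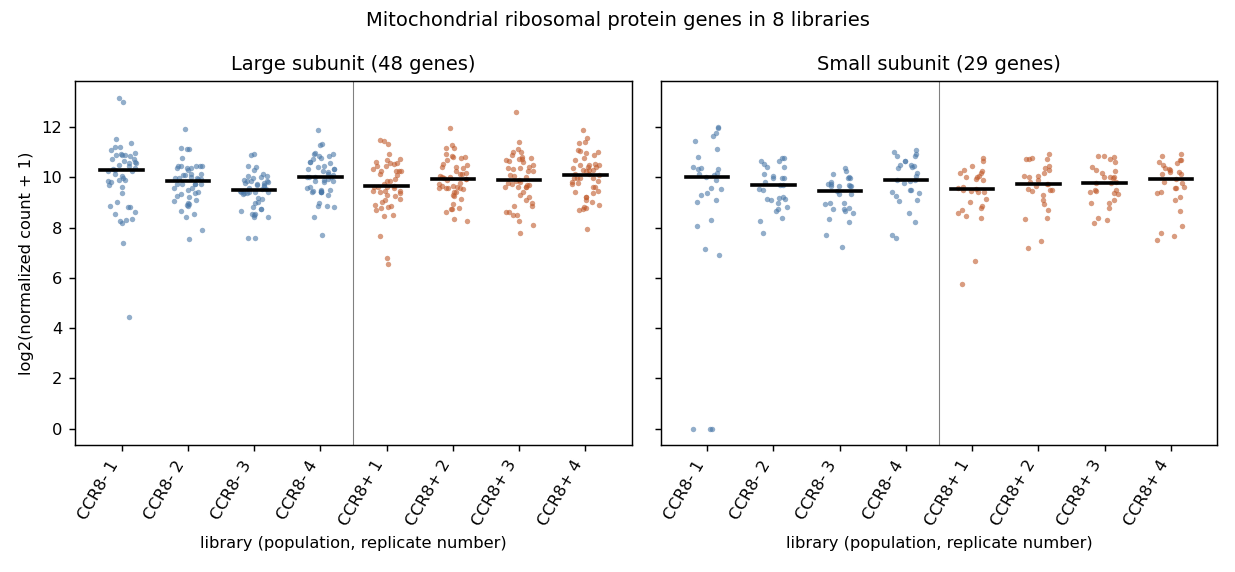
Each point is 1 gene and each black line the median of a subunit in 1 library, on a log2 scale of the normalized count + 1, with CCR8- libraries in blue and CCR8+ libraries in orange. The medians lie between 9.46 and 10.28, highest in CCR8- replicate 1 and lowest in CCR8- replicate 3, and 3 small subunit genes are at 0 in CCR8- replicate 1.

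No mitochondrial ribosomal protein transcript was called different between CCR8+ and CCR8- cells. limma called 0 of the 77 members at an adjusted p under 0.05, where it called 0% of all 11032 tested genes. The members' adjusted p lay between 0.838 and 0.997. limma did not call Ccr8 either, the gene of the sorted receptor. Its log2 fold change was 2.37 and its groups did not overlap, but its limma adjusted p was 0.8286. The absence of calls alone thus does not show that the members are unchanged. On the recovered reads, edgeR's quasi-likelihood test called 0 members and 0% of all genes, and DESeq2's Wald test called 0 members and 1.15% of genes, which are 26 of the 2259 genes to which it gave an adjusted p, 23 members among them. At an unadjusted p under 0.05 limma had 1 member, Mrps9, against 5.09% of all genes. The 4 CCR8+ libraries lay entirely above the 4 CCR8- libraries for 0 members, against 2.37% of all genes, and entirely below for 0, against 2.03%. In these bulk libraries a change in the share of cells that express a gene and a change in the RNA per cell cannot be told apart.

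The large and small subunit had like medians. The median log2 fold change was 0.09 over the 48 large subunit genes (range −1.01 to 1.47) and 0.09 over the 29 small subunit genes (range −0.95 to 2.81), against 0.04 over all tested genes. Of the large subunit genes 32 and of the small subunit genes 16 had a value above 0, together 62.3% of members against 52.4% of all genes. These medians rested on single libraries. Without CCR8- replicate 3 they were −0.02 and −0.13, without both libraries of replicate 3 they were −0.05 and −0.03, and without both of replicate 2 the small subunit median was −0.10. Without CCR8- replicate 1 they were 0.18 and 0.09 while the median of all genes was −0.08, and without both libraries of replicate 1 they were 0.25 and 0.15. In that last comparison of 3 against 3 libraries, 8 members lay entirely higher and 1 entirely lower in CCR8+ cells, where 5.61% and 6.92% of all genes did.

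The members were more evenly read than all tested genes, but they were also read at higher levels. The mean over the CCR8- libraries of the median log2 level was 9.85 for the members and 8.33 for all tested genes. The part of this level in the values below was not tested. The members' median difference between the groups was 0.24 in size on the log2 scale, against 0.51 for all genes. Of the 77 members, 63 differed by less than 0.5 against 49.1% of all genes, while 5 differed by more than 1 against 30.03%. The pooled SD of the log2 values within a group had a median of 0.46 in the large subunit and 0.53 in the small subunit, against 0.83 for all genes. The 95% interval of the log2 fold change lay between −1 and 1, which excludes a change of 2-fold or more in either direction, for 25 large and 12 small subunit genes, or 48.1% of members against 20.8% of all genes. For the other 40 members the interval reached a 2-fold difference in at least 1 direction.

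**Figure D2:**
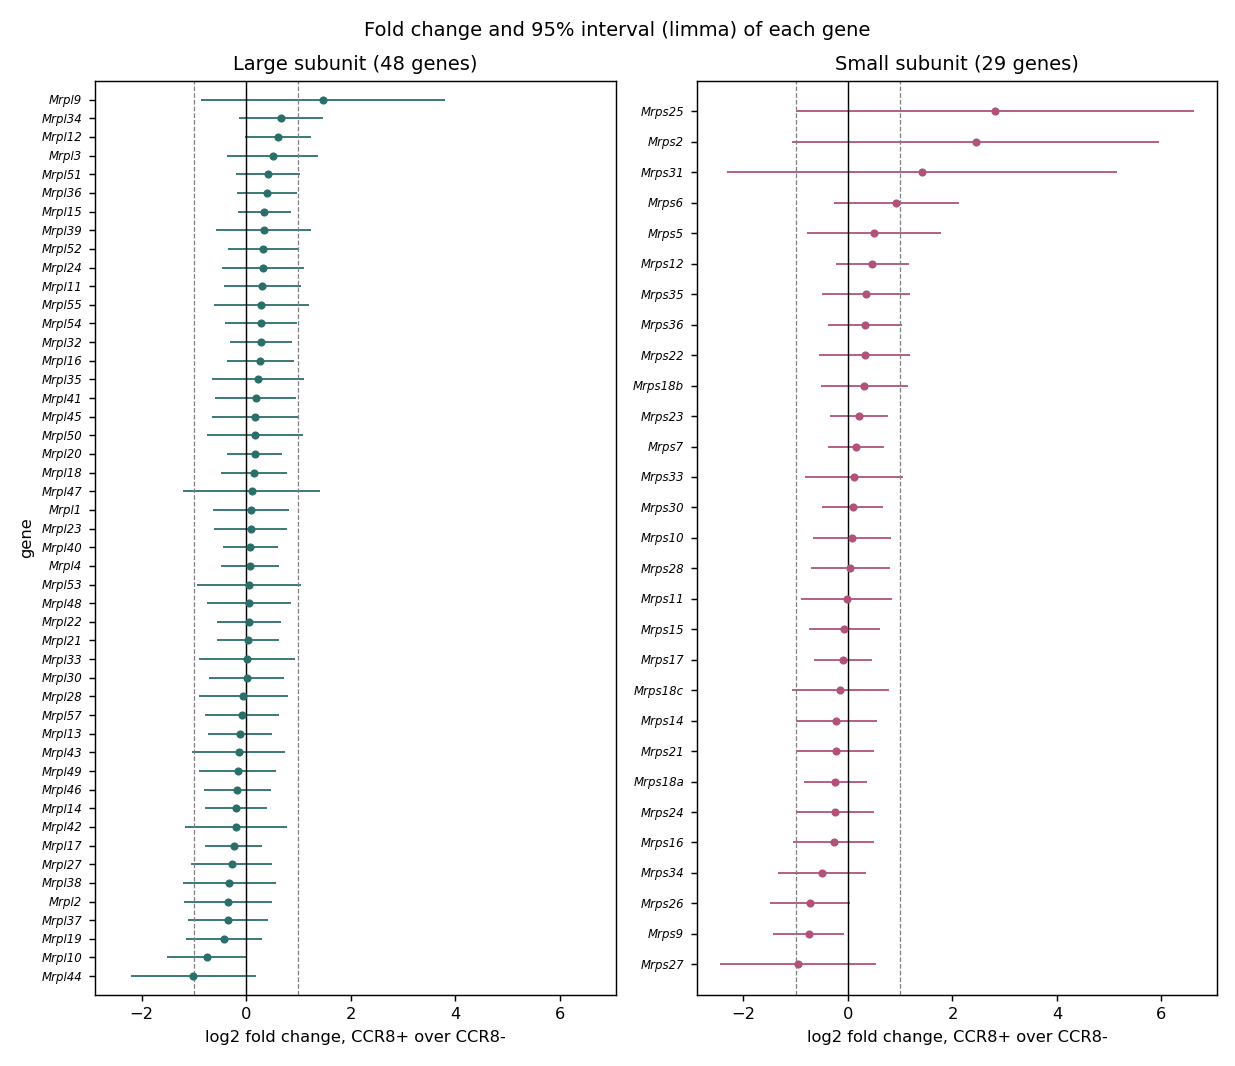
Each point is the log2 fold change (CCR8+ over CCR8-) of 1 gene and each line its 95% interval from limma, ranked within the large and the small subunit, with dashed lines at −1 and 1. The medians are 0.09 in both panels, and the longest intervals belong to Mrps25, Mrps2, Mrps31 and Mrpl9.

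The members with the highest fold changes had them through 1 library. Mrps25, a small subunit protein found in mitochondria only, had 0, 581, 404 and 717 normalized counts in CCR8- replicates 1 to 4 and 1028, 498, 1048 and 765 in CCR8+ replicates 1 to 4. Mrps2, a small subunit protein conserved from bacteria, had 0, 309, 206 and 206 in CCR8- and 386, 324, 499.5 and 183 in CCR8+ libraries. Mrps31, another mitochondria-specific small subunit protein, had 0, 403, 148 and 383 in CCR8- and 102, 178, 315 and 205 in CCR8+ libraries. All 3 were at 0 reads in CCR8- replicate 1 and nowhere else, and in the other 7 libraries the groups overlapped. No large subunit gene was at 0 in a library, and in all 3 members were at 0 in at least 1 library where 30.7% of tested genes were. The log2 fold changes were 2.81 (standard error 1.73), 2.44 (1.60) and 1.42 (1.70), each with a limma adjusted p of at least 0.838, and without CCR8- replicate 1 they were 0.54, 0.47 and −0.62. Of the 6576 exonic bases of Mrps25, 4590 are shared with Nr2c2 on the other strand, and reads there cannot be told apart without strand.

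Mrpl9, a conserved large subunit protein, followed the same pattern without reaching 0. It had 20.7, 864, 1040.3 and 1175 normalized counts in CCR8- and 1479, 1113, 1040.1 and 795 in CCR8+ replicates 1 to 4, so that CCR8- replicate 1, with 21 reads, lay far below the other 7 libraries, which overlapped. Its log2 fold change was 1.47 (standard error 1.06, limma adjusted p = 0.838), and without CCR8- replicate 1 it was 0.08.

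**Figure D3:**
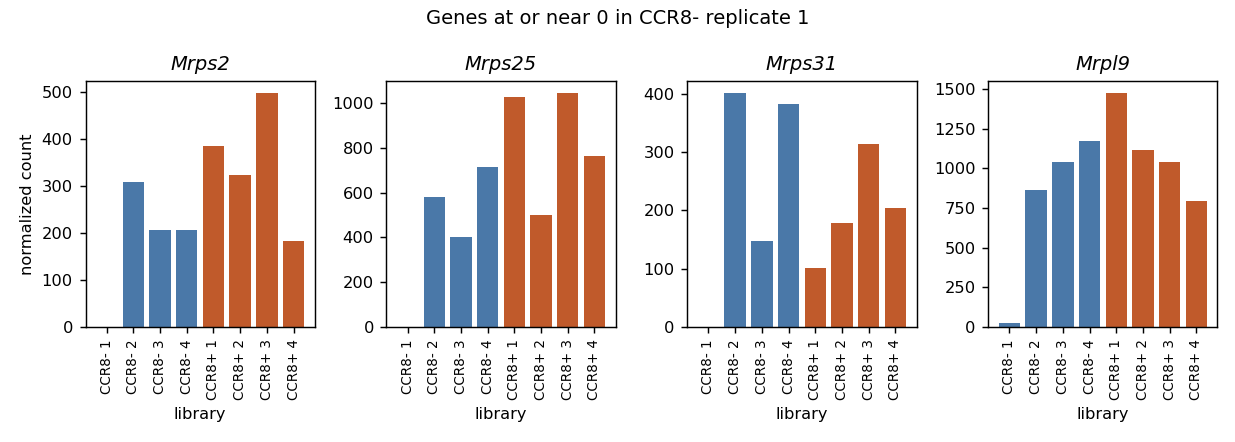
Bars give the normalized count of 4 genes in each library, CCR8- in blue and CCR8+ in orange, each panel with its own axis from 0. Mrps2, Mrps25 and Mrps31 are at 0 and Mrpl9 is at 20.7 in CCR8- replicate 1, and all 4 genes are read at 101.6 normalized counts or more in the other 7 libraries.

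The next highest large subunit genes had smaller differences with narrower intervals. Mrpl12, the protein of the flexible stalk that recruits translation factors, had 672, 1274, 1247 and 1746 normalized counts in CCR8- and 1646, 1793, 1711 and 2038 in CCR8+ replicates 1 to 4. It was higher in the CCR8+ library of all 4 same-numbered pairs, but CCR8- replicate 4 lay above CCR8+ replicates 1 and 3 and the groups overlapped. Its means were 1235 ± 439.5 and 1797 ± 172 (SD, n = 4 each), with a log2 fold change of 0.62 (95% interval −0.02 to 1.25, limma adjusted p = 0.838, exact permutation p = 0.0857), and without CCR8- replicate 1, its lowest library, the log2 fold change was 0.35. Mrpl12 is named for its high fold change, so its interval and exact p draw on the values that chose it. Mrpl34, a short protein buried in the ribosomal RNA of the large subunit, had 292, 506, 344 and 722 in CCR8- and 637, 639, 952 and 599 in CCR8+ libraries. CCR8+ replicate 3 was the highest, CCR8- replicate 4 lay above 3 of the CCR8+ libraries, and the log2 fold change was 0.66 (95% interval −0.14 to 1.47, limma adjusted p = 0.838), or 0.40 without both libraries of replicate 3.

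At the other end of the large subunit was Mrpl44, a protein with a fold like that of RNase III, which had 1063, 466, 358 and 676 normalized counts in CCR8- and 109, 496, 307 and 436 in CCR8+ replicates 1 to 4. CCR8+ replicate 1 was far below the rest and CCR8- replicate 1 far above, and the log2 fold change was −1.01 (standard error 0.55, limma adjusted p = 0.838), −0.54 without CCR8+ replicate 1 and −0.25 without both libraries of replicate 1. Mrpl10, which anchors the stalk of Mrpl12, had 2036, 969, 939 and 929 in CCR8- and 661, 979.9, 459.6 and 712 in CCR8+ libraries, with 1 CCR8+ library, replicate 2, above 3 of the CCR8- libraries and a log2 fold change of −0.75 (95% interval −1.51 to 0.00), or −0.48 without CCR8- replicate 1. Mrpl19, a conserved protein at the face between the subunits, had 903, 618, 664 and 793 in CCR8- and 418, 799, 396 and 686 in CCR8+ libraries and a log2 fold change that came to −0.42 (standard error 0.33), −0.27 without CCR8+ replicate 3 and −0.19 without both libraries of replicate 1. Mrpl12 and Mrpl10, which sit together in the stalk, thus had values of opposite sign, and neither passed the test. Antisense genes cover exonic bases of Mrpl12 (200 of 1532), Mrpl10 (240 of 1708), Mrpl19 (1962 of 5450) and Mrpl44 (126 of 1644).

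In the small subunit the lowest values were those of Mrps27, Mrps9 and Mrps26. Mrps9, a conserved protein of the head of the small subunit, had 1143, 590.2, 821 and 957 normalized counts in CCR8- and 470.1, 421, 551 and 599 in CCR8+ replicates 1 to 4. The CCR8+ library was lower in all 4 same-numbered pairs, and 1 value, CCR8+ replicate 4, lay above the lowest CCR8- library, replicate 2. The means were 878 ± 233 in CCR8- and 510.1 ± 79.9 in CCR8+ cells (SD, n = 4 each), with a log2 fold change of −0.75 (95% interval −1.43 to −0.08, limma adjusted p = 0.838, exact permutation p = 0.0571). It was between −0.93 and −0.58 when libraries were left out in turn. Mrps9 is named for its low fold change, so its interval and exact p, which are not adjusted, draw on the values that chose it.

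Mrps27, a protein with pentatricopeptide repeats, had 514, 221, 322 and 194 in CCR8- and 53, 145, 291 and 222 in CCR8+ libraries, and its log2 fold change of −0.95 had a standard error of 0.68. It was −0.46 without CCR8+ replicate 1 and −0.19 without both libraries of replicate 1. CCR8+ replicate 1, at 49 reads, was the lowest, and an antisense gene covers 506 of its 2093 exonic bases. Mrps26, a mitochondria-specific protein, had 3207, 1608, 1346 and 1437 in CCR8- and 688, 1165, 1694 and 981 in CCR8+ libraries, highest in CCR8- replicate 1, with a log2 fold change of −0.73 (95% interval −1.49 to 0.04, limma adjusted p = 0.838), which was −0.44 without CCR8- replicate 1 and −0.23 without both libraries of replicate 1.

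Symbols do not always tell the subunit. Mrps18a, Mrps18b and Mrps18c are 3 relatives of 1 bacterial protein, of which Mrps18a sits in the large and the other two in the small subunit, and Mrps30 is also a large subunit protein. Mrps36 is known as a part of the 2-oxoglutarate dehydrogenase complex. Their log2 fold changes were −0.24, 0.32, −0.15, 0.09 and 0.32 in that order, with standard errors of 0.27 to 0.42. Mrps18a had 1293, 1136, 816 and 953 normalized counts in CCR8- and 714, 1024, 709 and 1129 in CCR8+ replicates 1 to 4, while Mrps18b had 316, 427, 432 and 924 in CCR8- and 738, 633, 506 and 550.1 in CCR8+ libraries, and in both genes the groups overlapped. In CCR8- replicate 1, Mrps18a and Mrps18c were at their highest and Mrps18b at its lowest. With the proteins put in the subunit where they sit and 6 proteins with other names added (Dap3, Aurkaip1, Chchd1, Ptcd3, Gadd45gip1 and Ict1), the medians were 0.08 over 52 large and 0.06 over 30 small subunit genes. The log2 fold changes of these 6 lay between −0.28 for Ict1, a peptidyl-tRNA hydrolase built into the large subunit, and 0.29 for Chchd1, a small subunit protein, and 0 of 6 were called.

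The median level of the members differed more between libraries of one population than between the populations. The median member had a log2 level of 10.15, 9.75, 9.47 and 10.004 in CCR8- replicates 1 to 4 and 9.62, 9.90, 9.83 and 10.10 in CCR8+ replicates 1 to 4. The members took 0.823%, 0.574%, 0.499% and 0.637% of the normalized counts in CCR8- and 0.549%, 0.627%, 0.588% and 0.643% in CCR8+ libraries. CCR8- replicate 1 was the highest and CCR8- replicate 3 the lowest by either measure, and the CCR8+ libraries lay within the range of the CCR8- libraries. CCR8- replicate 1 held the highest value of 33 of 77 members, against 22.8% of all genes, and also the lowest value of 16, against 41.2% of all genes. CCR8- replicate 3 held the lowest value of 30 members, against 11.97% of all genes.

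The balance of the subunits varied less than their level. The summed large subunit counts were 1.99, 1.93, 1.87 and 1.80 times the summed small subunit counts in CCR8- replicates 1 to 4, and 2.07, 1.98, 2.06 and 2.07 times in CCR8+ replicates 1 to 4. The means were 1.897 ± 0.0792 in CCR8- and 2.044 ± 0.0447 in CCR8+ cells (SD, n = 4 each), and the groups overlapped only through CCR8+ replicate 2, which lay just under CCR8- replicate 1.

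In these libraries the nuclear subunits of oxidative phosphorylation lay on the same side as the members. The median deviation of a gene from its own median over the 8 libraries was 0.26 for the large and 0.19 for the small subunit in CCR8- replicate 1, and 0.25 for the 74 nuclear subunits of oxidative phosphorylation, but −0.26 for the 76 cytosolic ribosomal proteins and −0.20 for all tested genes. In CCR8- replicate 3 the values were −0.43 and −0.36 for the subunits, −0.66 for oxidative phosphorylation, −0.36 for cytosolic ribosomal proteins and 0.01 for all genes. Transcript length went with part of these values. The tested genes were cut into 4 equal groups by length, and the 51 members in the shortest group (up to 1830 bases) had a median deviation of −0.43 in CCR8- replicate 3, and the 1932 genes of that group, members included, that were read at least at the level of the lowest member had −0.36. The longer members were low there as well, at −0.27, −0.48 and −0.19 in the next 3 groups (7, 14 and 5 members), whereas genes read at the members' levels in those groups had 0.01, 0.15 and 0.14. In CCR8- replicate 1 the members of the 4 groups had 0.26, 0.10, 0.06 and 0.42 from short to long, and all genes at those levels 0.02, −0.14, −0.04 and 0.13, with no order by length. The part of transcript length in the members' values was not tested.

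**Figure D4:**
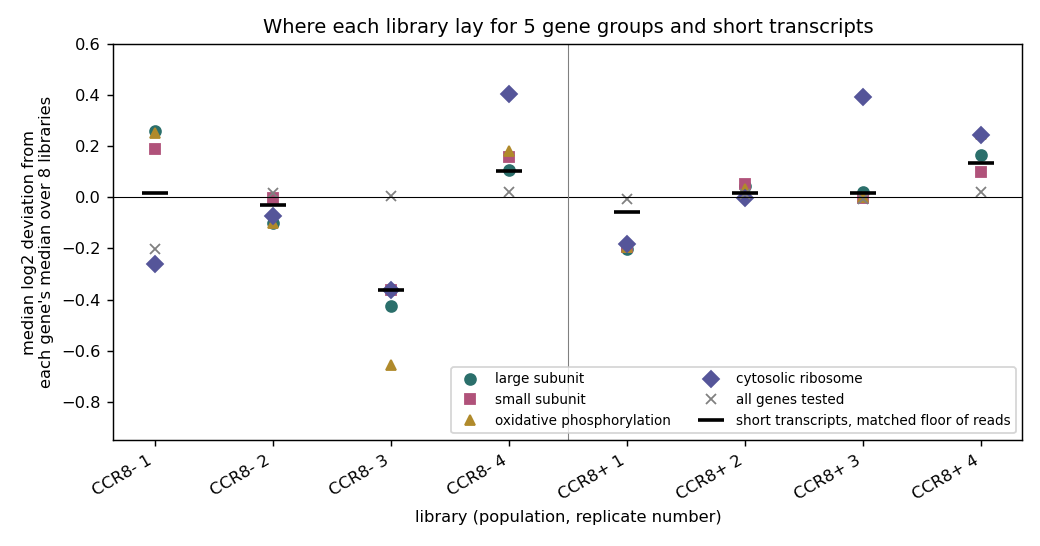
Symbols give, for each library, the median over a gene group of the log2 deviation from each gene's own median over the 8 libraries, and black dashes the genes of the shortest length group read at the members' levels. The large subunit runs from −0.43 in CCR8- replicate 3 to 0.26 in CCR8- replicate 1, and all tested genes stay between −0.20 and 0.02.

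Within same-numbered libraries the members went different ways from number to number. In replicate 1 the CCR8+ library was lower, with a median log2 difference of −0.47 in the large and −0.47 in the small subunit and 25 of 77 members higher, where 50% of all genes were higher. In replicate 3 it was higher, by 0.48 and 0.56, with 56 members higher against 46% of all genes. Replicates 2 and 4 differed little, with medians of 0.13 and 0.07 (60 members higher against 48.4%) and of 0.08 and −0.02 (45 members higher against 48.2%). Those of oxidative phosphorylation were −0.51, 0.14, 0.66 and 0.05 in replicates 1 to 4, and those of cytosolic ribosomal proteins 0.09, 0.07, 0.76 and −0.15. All tested genes had medians of 0, −0.01, 0 and −0.01.

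**Figure D5:**
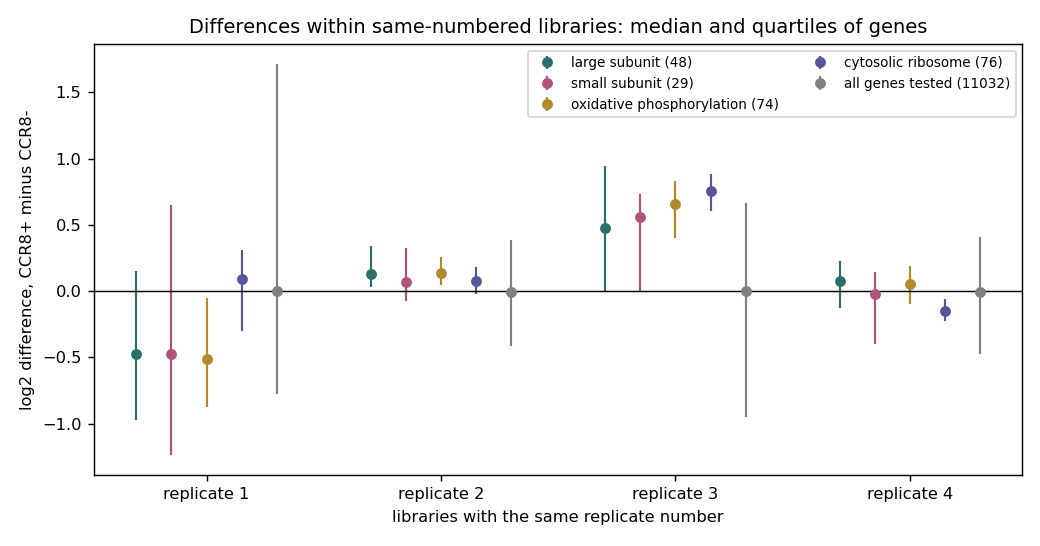
Points give the median and lines the quartiles, over the genes of a group, of the log2 difference between the CCR8+ and the CCR8- library with the same replicate number. Both subunits lie at −0.47 in replicate 1 and at 0.48 and 0.56 in replicate 3, and near 0 in replicates 2 and 4.

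In 7 members the CCR8+ library was higher in all 4 same-numbered pairs, against 8.44% of all genes, and in 3 it was lower, against 8.1%. The former were Mrpl12, Mrpl16, Mrpl36, Mrpl39, Mrps6, Mrps23 and Mrps35, with log2 fold changes of 0.21 for Mrps23 to 0.93 for Mrps6, and the latter Mrps9, Mrpl17 (−0.24) and Mrps34 (−0.50). Mrpl12 and Mrps9 are also among the members with the highest and lowest fold changes, and the others were named after their values were seen. Mrps6, a protein of the small subunit platform, had 141, 552, 703 and 884 normalized counts in CCR8- and 526, 816, 1153 and 1285 in CCR8+ replicates 1 to 4, and its groups overlapped (exact permutation p = 0.229).

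The factors that serve the mitochondrial ribosome were less evenly read than its proteins. Many of them had means below the lowest member mean of 205 normalized counts, and the part of level in their spread was not tested. Of the 67 genes of 4 lists (translation factors, tRNA charging enzymes, assembly factors, and transcription and replication of mitochondrial DNA) 0 were called. The 16 translation factors had a median log2 fold change of 0.30, with 10 higher and 6 lower. Their median pooled SD was 0.91, against 0.83 for all tested genes, and 5 of them were at 0 in at least 1 library. Mtif3, an initiation factor, had 227, 229, 205 and 249.9 normalized counts in CCR8- and 106, 107, 82.1 and 149 in CCR8+ replicates 1 to 4. Each CCR8+ library lay below each CCR8- library, with a log2 fold change that came to −1.06 (standard error 0.61, limma adjusted p = 0.838). Mtif3 is named as a key factor and also because its groups do not overlap. For any gene with such groups the exact permutation test gives its lowest possible p, 0.0286, so it adds nothing to that. Over the 4 lists 2 of 67 genes were apart, both lower in CCR8+ cells, where 2.03% of all tested genes were apart and lower and 2.37% apart and higher. Gtf3a, which is antisense to it, covers 1505 of its 5127 exonic bases. The other initiation factor, Mtif2, had a log2 fold change of −0.01.

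The elongation factors Tufm, which brings the aminoacyl-tRNA, and Tsfm, which recycles it, had log2 fold changes of 0.69 and 0.88. Their standard errors were 0.37 and 0.52. Tufm had 513, 1319, 1589 and 1528 normalized counts in CCR8- and 2339, 1857, 1291 and 1961 in CCR8+ replicates 1 to 4. It was lowest in CCR8- replicate 1, and its groups overlapped. Tsfm had 101, 438, 479.8 and 495 normalized counts in CCR8- and 539, 663, 494 and 683 in CCR8+ replicates 1 to 4, lowest in CCR8- replicate 1, with overlapping groups (exact permutation p = 0.0571). Gfm1, the translocase, had 0.03, and Gfm2 and Mrrf, which split the ribosome after termination, had 0.55 and 1.23, the last with a standard error of 1.67 and 0 reads in CCR8- replicate 1. Oxa1l, the inner membrane insertase to which the mitochondrial ribosome docks, had 1174, 781, 585 and 818 normalized counts in CCR8- and 71.3, 619, 241 and 476 in CCR8+ libraries. Only CCR8+ replicate 2 lay above the lowest CCR8- library, CCR8+ replicate 1 was far below all others, and the log2 fold change was −1.60 (standard error 0.61, limma adjusted p = 0.838, exact permutation p = 0.0571). Lrpprc, which keeps mitochondrial mRNAs stable, had 287, 251, 174 and 199.9 in CCR8- and 69.2, 151, 57 and 195 in CCR8+ libraries, with a log2 fold change that came to −1.10 (standard error 0.69, exact permutation p = 0.0571). Of the 16 translation factors, 3 (Oxa1l, Lrpprc and Mtif3) were lower in the CCR8+ library of all 4 same-numbered pairs, against 8.1% of all genes, and 2 (Tsfm and Mtrf1l) were higher in all 4, against 8.44%.

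Among 23 assembly factors of the ribosome the median log2 fold change was 0.02, with 12 higher and 11 lower. Ddx28, a helicase of large subunit assembly, had 539, 687, 661 and 492 normalized counts in CCR8- and 183, 478, 67.3 and 425 in CCR8+ replicates 1 to 4, all CCR8+ values below all CCR8- values (log2 fold change −1.39, standard error 0.60, limma adjusted p = 0.838). Ddx28 is the other of the 2 list genes that are apart, and it is named for that. The 20 genes of mitochondrial tRNA charging, 17 synthetases and Qrsl1, Gatb and Gatc of the glutamyl-tRNA amidotransferase, had a median of 0.14 and a median pooled SD of 2.45, and 10 of them were at 0 in at least 1 library. The 8 genes of mitochondrial DNA transcription and replication had a median of −0.14. Of these, the polymerase gene Polrmt had a log2 fold change of −0.70 (standard error 2.14), and Tfam, which packs mitochondrial DNA, 2.01 (standard error 1.32), with 3.94, 726, 437 and 595 normalized counts in CCR8- and 820.3, 715, 708 and 588 in CCR8+ replicates 1 to 4. Tfam was near 0 in CCR8- replicate 1 alone.

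The 9 nuclear regulators of mitochondrial genes had a median of 0.07, and 0 were called or apart. Myc, whose protein drives ribosome genes in activated T cells, had 213, 462, 1575 and 463 normalized counts in CCR8- and 1589, 975, 2455 and 711 in CCR8+ replicates 1 to 4. Its groups overlapped (log2 fold change 1.31, standard error 0.57, limma adjusted p = 0.838, exact permutation p = 0.143). Of the 9 regulators, 1 (Myc) was higher in the CCR8+ library of all 4 same-numbered pairs, against 8.44% of all genes. In 2 others (Gabpa and Yy1) the CCR8+ library was lower in all 4 pairs, against 8.1%. For the factors whose motifs were searched, the log2 fold changes were 0.07 for Nrf1, −0.48 for Gabpa and −0.55 for Yy1, with standard errors of 0.40 to 0.45.

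The nuclear subunits of the oxidative phosphorylation complexes and the cytosolic ribosomal proteins were set beside the members. Both lists are read at higher levels, with a mean over the CCR8- libraries of the median log2 level of 11.61 and 12.58, against 9.85 for the members. The 95% interval stayed between −1 and 1 for 64 of 74 oxidative phosphorylation subunits and 69 of 76 cytosolic ribosomal proteins, against 37 of 77 members. Their pooled SD of the log2 values within a group had medians of 0.40 and 0.33, against 0.49 for the members, which were thus the least evenly read of the 3 lists. Median log2 fold changes were 0.08 and 0.18, with 47 and 65 genes higher, and limma called 0 genes of either list. The 3 lists share their libraries, and the differences between them were not tested.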

How the data were processed

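Values were analyzed for 8 bulk RNA-Seq libraries, 4 of CCR8+ and 4 of CCR8- Tconv cells, assigned by their labels. The authors made low-input cDNA libraries, aligned reads to NCBIM37 with hisat2 and kept unique alignments, and the submitters' processing notes list FastQC, cutadapt, HTSeq and DESeq2. Tool versions and the use of strand in counting are not given in the sources used here. Each of the values deposited by the authors is a signal, the read count of a gene divided by 1 factor per library. They are called normalized counts here. Whole reads were recovered for 100% of values (within 0.01 read). The floor was set at 3 reads, worth 2.21 to 3.42 normalized counts, and such limits cover counting error only. The fits, the differences within same-numbered libraries and the counts of genes at 0 did not use this floor.

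limma 3.58.1 in R 4.3.3 was run with an intensity trend on log2(normalized count + 1) for 11032 genes whose mean was 10 or more, and p was adjusted by Benjamini-Hochberg over all of them. Intervals are at 95%. The exact permutation test (two-sided) went through all 70 ways to label 4 of 8 libraries, so its p cannot go below 0.0286. edgeR 4.0.16 and DESeq2 1.42.0 were run on the recovered reads. Other alternatives were scaling, pseudocount, the limit on the mean, the trend, the replicate block, subunit by place and leaving out libraries. On simulated data with the spread of these libraries, 200 of 10701 genes were given a log2 difference of 3. Of these limma recovered 122 with 12 false calls, edgeR 128 with 12 and DESeq2 158 with 102. Smaller differences, such as the members' median of 0.24, were not simulated with that spread, so the power to call them is not known.

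The members and gene lists were chosen with earlier results of these data known. Genes named are, in each subunit, the 3 with the highest mean, fold change and lowest fold change, members at 0, Mrps symbols of uncertain place, proteins with other names, key factors, and list genes called or apart. Libraries of 1 group are separate samples by their labels, and p-values measure the spread between them. Positions, transcript lengths and shared exonic bases are from GENCODE M21 and promoters from RefSeq, both on GRCm38, a later build than that of the alignment. In all 27 members have exonic bases in common with an antisense gene, 8 with a gene of the same strand, and Mrpl23, Mrpl48 and Mrps36 have a named pseudogene. Members without a promoter entry are Mrpl4, Mrpl13, Mrpl15, Mrpl19, Mrpl38, Mrpl54, Mrps28, Mrps34 and Mrps35. The table holds 0 genes encoded in mitochondrial DNA.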

Additional observations from a re-analysis of the deposited data

Results flagged for a closer look

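Dixon's test was run in 50 groups of 4 libraries (the named members, the subunit medians and the subunit ratio). The gap of 1 library to its nearest neighbour, divided by the range of its group, exceeded the 95% critical value 4 times. Chance flags about 1 in 20 groups if values are normally distributed, which was not checked, and the members' counts were taken without a log. Many of the named members were chosen for high or low fold changes in these same libraries. Mrpl10, Mrps26 and Mrpl34 are among them, so that rate does not apply to them. Mrpl10 was far above its group in CCR8- replicate 1, at 2036 normalized counts, and Mrps26 in the same library, at 3207. Mrpl34 was far above in CCR8+ replicate 3, at 952 normalized counts. The ratio of summed large to summed small subunit counts was low in CCR8+ replicate 2, at 1.977. No explanation of these values was tested.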

How the results depend on the processing

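In every alternative that was run, 0 members were called. Over all genes the count was 0, but 2 without the trend, 26 by DESeq2 and 124 by DESeq2 with the replicate block, and edgeR called 0 with and without it. With the replicate block limma called 1 gene. Same-numbered libraries deviated from their group means with correlations of 0.0682, 0.138, 0.108 and 0.217. Replicates 2, 3 and 4 correlated best with their own number, and replicate 1 did not. The numbers are therefore not taken to pair the libraries, although a pairing is not excluded. The block changed no call of a member. With each library scaled to the same total, 0 members were apart and higher in CCR8+ cells and 1 apart and lower, against 1.77% and 2.31% of all genes. When libraries were left out, members whose groups did not overlap numbered between 0 and 9 (at least 1 in 11 of 12 cases). The 9, without both libraries of replicate 1, were 8 higher and 1 lower, against 5.61% and 6.92% of all genes. With all 8 libraries those shares of all genes were 2.37% and 2.03%. edgeR and DESeq2 give no such count. The large subunit median log2 fold change was between −0.05 and 0.25 and the small subunit median between −0.13 and 0.16 when libraries were left out, the lowest small subunit value being that without CCR8- replicate 3. By edgeR and DESeq2 the small subunit median was −0.03 and −0.04, and with equal totals both medians were 0.02. The cause of these changes was not tested.

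The direction of Mrpl33 turned with equal totals (−0.051), quantile normalization (−0.0582), edgeR (−0.15) and DESeq2 (−0.16), and that of Mrps31 with edgeR (−0.23) and DESeq2 (−0.23). Leaving out libraries turned the direction of Mrpl33 (−0.55 to 0.60), Mrpl42 (−0.55 to 0.31), Mrpl4 (−0.0745 to 0.30), Mrpl9 (−0.0665 to 2.15), Mrps14 (−0.54 to 0.15), Mrps24 (−0.59 to 0.20), Mrps18c (−0.51 to 0.27), Mrps31 (−0.62 to 2.29) and Mrps30 (−0.11 to 0.27). All other values of the 22 named members, 243 with libraries left out and 302 under other settings, kept their direction and none passed the threshold, although DESeq2 without the block gave no adjusted p for 14 of the 22, nor for 54 of all 77 members. The 3 members at 0 were at 0 in CCR8- replicate 1 alone. That library had 13653362 reads, where the 8 libraries ranged from 12067780 to 17802628. It had the fewest genes detected, 8569, and 22.5% of tested genes at 0. The cause of these 0 values was not tested.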
